A study of Mus musculus with 6 samples.

Results

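Transforming growth factor beta (TGF-beta) signalling was examined through 10 genes, namely the ligand gene Tgfb1, the receptor genes Tgfbr1, Tgfbr2 and Tgfbr3, and the Smad genes Smad1, Smad2, Smad3, Smad4, Smad5 and Smad7. The genes were chosen by name. Each was represented by 1 probe set (a group of probes read as a gene), and all 10 were measured among 19938 genes in all. The cells were mouse haematopoietic stem and progenitor cells that carry cKit and Sca1 and lack lineage markers, called KSL cells. The DKO group held 3 samples of genotype Runx1fl/fl;Runx3fl/fl;Mx1-Cre+, and the WT group held 3 samples of littermates of genotype Runx1fl/fl;Runx3fl/fl;Mx1-Cre-. All were on the C57BL/6 background, with a stated minimum of 3 generations of backcrossing. Both groups thus carried the floxed alleles, and the protocol for both names 600 µg of pIpC, an inducer of the interferon-responsive Mx1 promoter, on 7 alternate days from 4 weeks of age, although the samples are described as untreated. The transgene and the deletion cannot be told apart, because WT mice lacked Mx1-Cre. Mx1-Cre also acts outside KSL cells, in other tissues that respond to interferon. The series' design text counts 6 mice in all, yet describes each WT sample as a pool of 3 mice and says nothing of pooling for DKO, so what 1 sample stands for in mice is not settled for either group.

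TGF-beta binds a pair of cell surface kinases, the type II receptor Tgfbr2 and the type I receptor Tgfbr1. The activated type I receptor phosphorylates the receptor-regulated Smads, Smad2 and Smad3, which join Smad4, enter the nucleus and act on target genes. Bone morphogenetic proteins (BMPs) use related receptors that phosphorylate Smad1 and Smad5, and these also join Smad4. Smad7 is an inhibitory Smad, made in response to the pathway, that blocks the receptors. In blood stem cells TGF-beta is known as a signal that holds cells out of division, and Runx proteins are known to bind receptor-regulated Smads.

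The values are log2 signals of whole genes, so a difference of 1 is a doubling. They were compared as DKO minus WT with limma, a linear model fitted to all 19938 genes, and a gene passed when its Benjamini-Hochberg adjusted p was below 0.05. Array medians were 5.88 to 5.91, lower quartiles 4.63 to 4.66 and upper quartiles 7.21 to 7.30. Correlations between arrays were 0.993 to 0.995 within DKO, 0.989 to 0.991 within WT and 0.976 to 0.980 between the groups. Kit signal averaged 10.49 ± 0.20 in DKO and 9.75 ± 0.11 in WT, and Cd34 signal 10.40 ± 0.12 in DKO and 10.37 ± 0.12 in WT (SD, n = 3 each), all above the upper quartile of every array. Ly6a, which encodes Sca1, was not analysed here. Runx1 signal was higher in DKO (9.29 against 8.47) and Runx3 signal was 7.38 in DKO against 7.53 in WT without passing (limma adjusted p = 0.253). With the trend described further on removed, Runx1 was at 0.51 and Runx3 at -0.29, which passed (0.0448). Cbfb signal was 8.88 in DKO against 9.23 in WT, with groups apart, and did not pass (limma adjusted p = 0.114). It passed as lower under quantile normalisation (0.019), under cyclic loess (0.0223) and with the trend removed (0.0233). A whole-gene signal does not check the removal of some exons, so DKO means samples labelled DKO.

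Marker genes of several cell types also differed between the groups. Of all genes 17.4% passed, beside 71.4% of sorting markers, 70% of mast cell and basophil markers and 55.6% of platelet and megakaryocyte markers. The share was 28.6% each for erythroid and B cell markers and 20% each for granulocyte and for macrophage and dendritic cell markers. It was 11.1% each for T and NK cell and for endothelial and stromal markers. Of 7 markers used to sort or divide KSL cells 4 were called higher and 1 lower, and their summed linear signal was 5759 to 6489 in DKO and 4312 to 4414 in WT. Slamf1 (1.95 on the log2 scale) and Cd48 (1.46) were among those higher, Flt3 was lower (-1.32, limma adjusted p = 0.000434), and Procr at -0.36 did not pass. Of 9 platelet and megakaryocyte markers 5 were higher and 0 lower, and the sum was 1638 to 2402 in DKO and 1089 to 1194 in WT. Without Gp5 this sum was 1215 to 1861 in DKO and 1027 to 1113 in WT. The differences of Pf4 (-0.51), Ppbp (-0.44) and Vwf (-0.12) lay below 0 without passing. Of 10 mast cell and basophil markers 4 were higher and 3 lower, with a median difference of 0.10. Their sum was 2899 to 3515 in DKO and 803 to 892 in WT, and without Cpa3 it was 1019 to 1388 in DKO and 624 to 719 in WT, whereas Fcer1a (-0.68), Mcpt8 (-1.32) and Prss34 (-0.82) were the ones lower. Of 10 granulocyte markers 0 were higher and 2 lower, and the sum was 2748 to 4113 in DKO and 4561 to 4892 in WT. Of 7 B cell markers the 2 lower ones were Cd72 and Vpreb1, and the sum was 393 to 484 in DKO and 819 to 1049 in WT. The erythroid sum over 7 markers (578 to 770 in DKO, 912 to 1389 in WT) overlapped between the groups without Car1 (445 to 505 in DKO, 477 to 534 in WT), and 2 of the 7 were lower. The sum over 9 T and NK cell markers (368 to 392 in DKO, 813 to 833 in WT) overlapped without Nkg7 (228 to 252 in DKO, 229 to 276 in WT), the 1 marker of the 9 that was called. Sums over 10 macrophage and dendritic cell markers and over 9 endothelial and stromal markers overlapped between the groups. The first still overlapped without Cd68 (364 to 418 in DKO, 370 to 412 in WT). Without Emcn (0.52, not passed) the endothelial and stromal sum no longer overlapped, at 339 to 348 in DKO and 376 to 415 in WT. Pdgfrb (-0.66, limma adjusted p = 0.031) was the 1 endothelial and stromal marker called. Array signals have no true zero, and 3 of 7 B cell markers and 4 of 9 T and NK cell markers stayed under every array's lower quartile in DKO, against 2 and 4 in WT. So did 3 of 10 mast cell and basophil markers in DKO and 2 in WT, and 2 of 10 granulocyte markers in each group. In each group 1 macrophage and dendritic cell marker and 1 endothelial and stromal marker did as well. Fcer1a was among these in DKO (3.78, 3.96 and 3.80), so the size of its fall is uncertain. The part of these differences in the results below was not tested, and in bulk samples a change in the share of a cell type and a change of RNA per cell cannot be told apart.

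Of the 10 genes, 4 were higher in DKO KSL cells, 0 were lower and 6 did not pass. The 4 were Tgfbr1, Smad1, Smad5 and Smad2, with rises of 1.46-fold to 1.63-fold. At an unadjusted limma p below 0.05 the counts were 5 higher, with Smad4 as the addition, and 0 lower, where 15% of all genes were higher and 16% lower. After adjustment over all genes tested, 9.71% were called higher and 7.69% lower. For 5 of the 10 genes the values of the groups were fully apart, each time with DKO above WT. Of all genes 35.8% had groups that were apart, 16.2% with DKO above and 19.6% with DKO below WT. The median difference of the 10 genes was 0.13 on the log2 scale, beside -0.04 over all genes, and 7 of the 10 differences were above 0. The median SD of the 10 genes was 0.114 in DKO and 0.115 in WT, beside 0.0985 in DKO and 0.125 in WT over all genes.

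**Figure D1:**
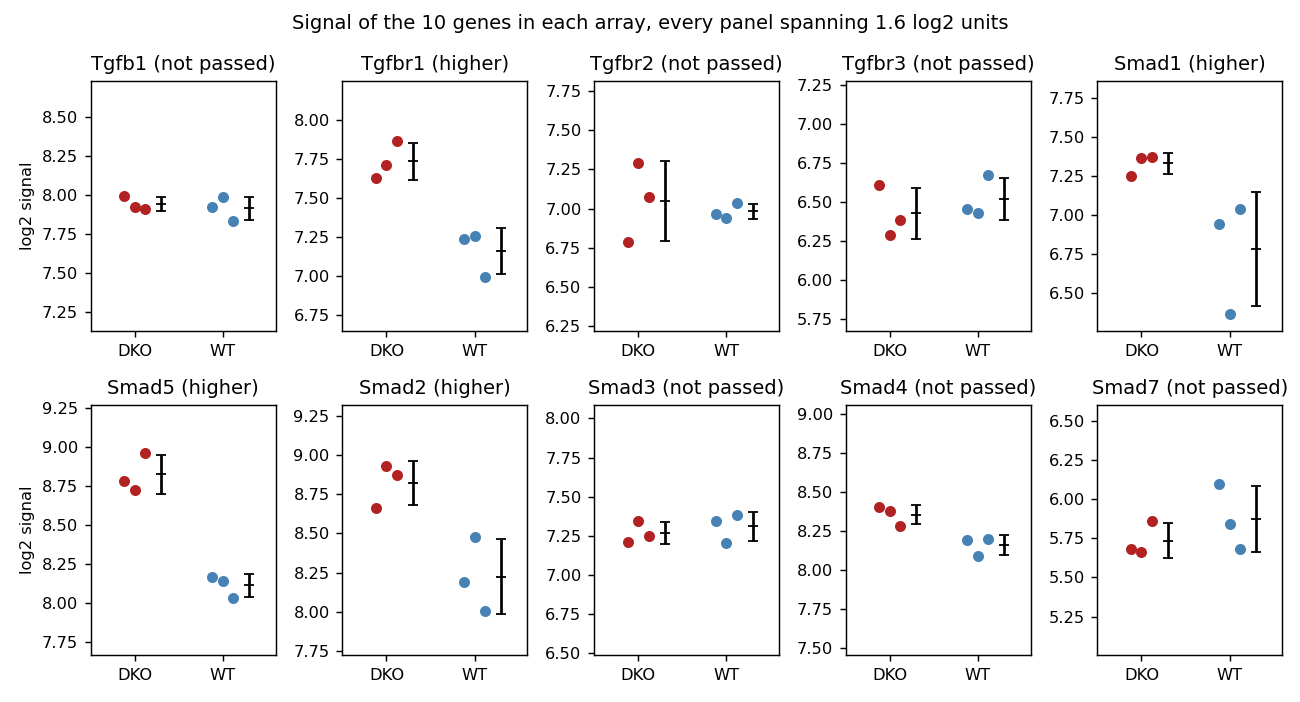
Log2 signal of each of the 10 genes in the 3 DKO arrays (red, left) and the 3 WT arrays (blue, right), with the group mean and SD in black. All DKO points lie above all WT points for Tgfbr1, Smad1, Smad5, Smad2 and Smad4, of which Smad4 did not pass the test.

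The ligand gene Tgfb1 (probe set 10551185), which encodes TGF-beta 1, had signals of 7.995, 7.924 and 7.907 in DKO and 7.925, 7.983 and 7.834 in WT. The groups overlapped. The difference was 0.03 on the log2 scale with a 95% interval of -0.16 to 0.22, and it did not pass (limma adjusted p = 0.858). Its sign turned under quantile normalisation (-0.07) and cyclic loess (-0.07).

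Among the receptors, Tgfbr1 alone passed. Tgfbr1 (probe set 10504817) had signals of 7.63, 7.71 and 7.86 in DKO and 7.24, 7.26 and 7.00 in WT. Every DKO sample lay above every WT sample, and the gap between the groups exceeded the spread within either. The rise was 0.57 on the log2 scale, or 1.49-fold (SE 0.106, 95% interval 0.33 to 0.81, limma adjusted p = 0.00571), and Tgfbr1 passed under all 17 alternatives tried (adjusted p of 0.0037 to 0.0295).

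Tgfbr2 (probe set 10597518), the kinase that binds the ligand and activates Tgfbr1, had signals of 6.78, 7.29 and 7.07 in DKO and 6.97, 6.94 and 7.04 in WT. The DKO samples spread to both sides of the WT samples, with an SD of 0.256 in DKO and 0.0502 in WT. The difference of 0.07 (95% interval -0.21 to 0.35, limma adjusted p = 0.756) did not pass. It was 0.20 without DKO replicate 1 and -0.05 without DKO replicate 2. Tgfbr3 (probe set 10532085), or betaglycan, a co-receptor without a kinase that presents ligand to Tgfbr2, had signals of 6.61, 6.29 and 6.39 in DKO and 6.46, 6.43 and 6.68 in WT. These overlapped, and the difference of -0.09 (95% interval -0.34 to 0.16, limma adjusted p = 0.628) did not pass. The interval of Tgfbr1 (0.33 to 0.81) overlapped that of Tgfbr2 and lay above that of Tgfbr3, and a difference between the responses of the receptors was not tested.

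Of the 10 genes, both Smads of the BMP branch were higher in DKO. Smad5 (probe set 10405605) had signals of 8.78, 8.73 and 8.96 in DKO and 8.17, 8.14 and 8.03 in WT. All DKO values stood well above all WT values. Smad5 rose by 0.71 on the log2 scale, or 1.63-fold (SE 0.0954, 95% interval 0.49 to 0.92, limma adjusted p = 0.00126), which was the highest difference of the 10 genes, and it passed under all 17 alternatives tried (adjusted p of 0.000853 to 0.00734).

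Smad1 (probe set 10579860) had signals of 7.25, 7.37 and 7.37 in DKO and 6.94, 6.37 and 7.04 in WT. The DKO samples were close together, and WT replicate 2 was lower than the other WT samples. The rise was 0.55, or 1.46-fold (SE 0.159, 95% interval 0.19 to 0.90, limma adjusted p = 0.0428), and was 0.34 without WT replicate 2 (adjusted p = 0.0472). The call was lost without DKO replicate 1 (adjusted p = 0.0881), 2 (0.116) or 3 (0.129) and under quantile normalisation (0.0666), in a range of 0.0273 to 0.129 over 17 alternatives.

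The Smads of the TGF-beta branch differed from each other in their calls. Smad2 (probe set 10456764) had signals of 8.664, 8.934 and 8.872 in DKO and 8.187, 8.478 and 8.003 in WT. The groups did not overlap, although the WT samples were spread widely. Smad2 rose by 0.60, or 1.52-fold (SE 0.131, 95% interval 0.31 to 0.89, limma adjusted p = 0.0124). Its call was lost without DKO replicate 2 (adjusted p = 0.0519) or 3 (0.0526), in a range of 0.00476 to 0.0829 over 17 alternatives.

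Smad3 (probe set 10594404) had signals of 7.21, 7.34 and 7.25 in DKO and 7.34, 7.20 and 7.38 in WT. The groups overlapped. The difference was -0.04 (95% interval -0.25 to 0.16, limma adjusted p = 0.789), did not pass and was at 0.00187 with each array centred on its median. The upper bound of 0.16 for Smad3 lay below the lower bound of 0.31 for Smad2, and the difference between these responses was not tested.

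Smad4 (probe set 10459705), the partner shared by both branches, had signals of 8.40, 8.38 and 8.28 in DKO and 8.19, 8.09 and 8.20 in WT. All DKO values lay above all WT values by a small margin. The difference of 0.19 (95% interval 0.0029 to 0.39) did not pass (limma adjusted p = 0.155), and it was 0.06 under quantile normalisation and 0.07 under cyclic loess. Smad7 (probe set 10456745), the inhibitory Smad, had signals of 5.68, 5.66 and 5.86 in DKO and 6.10, 5.84 and 5.68 in WT. The groups overlapped, and the signals lay near the array medians. Its difference of -0.14 (95% interval -0.41 to 0.13, limma adjusted p = 0.475) did not pass and was -0.03 without WT replicate 1.

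Over all genes the difference was weakly related to signal strength (Spearman correlation 0.213 across genes) and to the length of the gene on the chromosome (0.146), where genes are not independent replicates. A smooth trend over both, fitted to all genes, gave 0.22 for Smad2, 0.20 for Smad4, 0.17 for Smad5, 0.16 for Smad3, 0.14 for Tgfbr1, 0.11 for Tgfbr2, 0.10 for Smad1, 0.07 for Tgfb1, 0.06 for Tgfbr3 and -0.03 for Smad7. With this trend removed 2 of the 10 genes were called higher and 0 lower, where 7.27% of all genes were called higher and 7.43% lower. Smad5 was then at 0.54 (limma adjusted p = 0.0056) and Tgfbr1 at 0.43 (0.0248). Smad1 at 0.45 (0.0977) and Smad2 at 0.38 (0.0829) no longer passed. Smad4 was at -0.00266 (0.991) and Smad3 at -0.20 (0.185), neither passing.

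**Figure D2:**
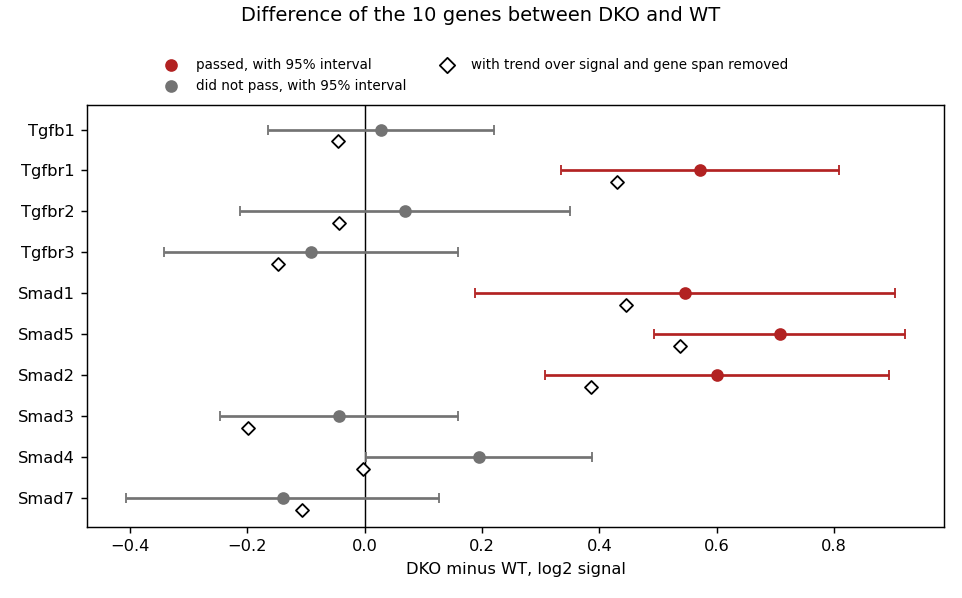
DKO minus WT difference in log2 signal of the 10 genes, with 95% intervals, red where the gene passed, and as open diamonds the difference after removal of the trend over signal and gene length. Tgfbr1, Smad1, Smad5 and Smad2 lie to the right of 0 with intervals that exclude it, and each diamond of these genes lies to the left of its circle. The interval of Smad4 (0.0029 to 0.39) also excludes 0, although Smad4 did not pass after adjustment.

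**Figure D3:**
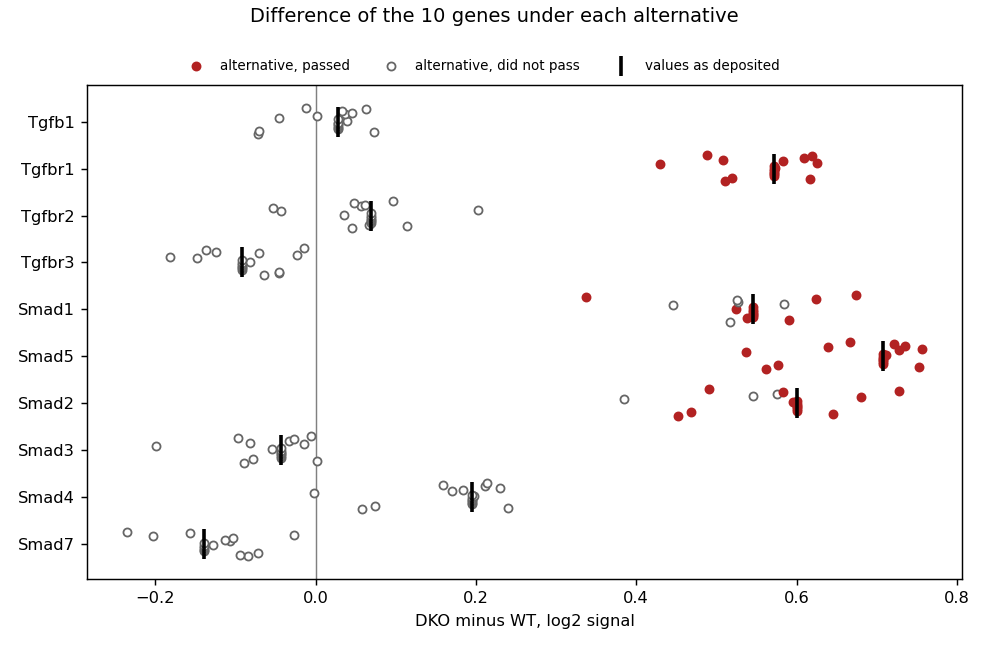
DKO minus WT difference in log2 signal of the 10 genes under each alternative processing (circles, red where the gene passed) and as deposited (black bar). Circles of Tgfbr1 and Smad5 are all red, between 0.43 and 0.76, whereas Smad1 and Smad2 have open circles among the red.

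Promoter windows of the genes were read from RefSeq (build GRCm38.p6), 250 bases before to 50 after each annotated start. For the 10 genes, windows on 1 chromosome were left out before the search, although the shares over all genes below include it. Among the remaining windows, 6 of the 10 genes had at least 1. Those of the called genes Tgfbr1, Smad1 and Smad5 are shown because these genes were higher together, with that of Tgfbr2 as the receptor that did not pass. Each was searched on both strands for the core of the motif of Runx proteins (TGTGGT, or ACCACA on the other strand) and for a Smad-binding element (CAGAC, or GTCTG). Matches are in capitals, and each window is written 5′ to 3′ on the strand of its gene. Tgfbr1 had windows at 2 annotated starts on the plus strand, chr4:47352972-47353271 and chr4:47385966-47386265, Tgfbr2 had 1 on the minus strand at chr9:116175314-116175613, Smad1 had 1 on the minus strand at chr8:79399379-79399678, and of the 3 windows of Smad5 the one on the plus strand at chr13:56703418-56703717 is printed.
Tgfbr1, start at the first window: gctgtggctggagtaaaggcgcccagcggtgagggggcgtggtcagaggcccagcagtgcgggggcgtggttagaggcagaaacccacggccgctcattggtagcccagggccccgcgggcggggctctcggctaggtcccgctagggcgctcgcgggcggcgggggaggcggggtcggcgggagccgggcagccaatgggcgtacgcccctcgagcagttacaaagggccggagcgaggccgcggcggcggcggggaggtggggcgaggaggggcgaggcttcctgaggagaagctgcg
Tgfbr1, start at the other window: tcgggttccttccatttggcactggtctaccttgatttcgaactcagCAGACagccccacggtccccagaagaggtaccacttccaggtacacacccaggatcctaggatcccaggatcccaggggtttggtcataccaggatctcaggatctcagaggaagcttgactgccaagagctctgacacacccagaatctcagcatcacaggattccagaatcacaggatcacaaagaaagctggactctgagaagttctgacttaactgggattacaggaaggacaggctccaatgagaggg
Tgfbr2: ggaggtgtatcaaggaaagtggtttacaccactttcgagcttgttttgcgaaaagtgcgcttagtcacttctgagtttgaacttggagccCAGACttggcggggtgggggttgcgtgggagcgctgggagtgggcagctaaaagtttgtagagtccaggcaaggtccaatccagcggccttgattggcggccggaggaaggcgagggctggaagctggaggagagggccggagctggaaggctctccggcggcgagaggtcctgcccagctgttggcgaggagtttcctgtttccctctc
Smad1: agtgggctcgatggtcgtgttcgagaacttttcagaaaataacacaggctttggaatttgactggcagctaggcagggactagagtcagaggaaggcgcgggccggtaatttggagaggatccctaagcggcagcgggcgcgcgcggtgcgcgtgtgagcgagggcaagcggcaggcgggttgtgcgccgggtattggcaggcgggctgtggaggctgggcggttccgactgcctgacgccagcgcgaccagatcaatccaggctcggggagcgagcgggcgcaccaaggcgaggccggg
Smad5: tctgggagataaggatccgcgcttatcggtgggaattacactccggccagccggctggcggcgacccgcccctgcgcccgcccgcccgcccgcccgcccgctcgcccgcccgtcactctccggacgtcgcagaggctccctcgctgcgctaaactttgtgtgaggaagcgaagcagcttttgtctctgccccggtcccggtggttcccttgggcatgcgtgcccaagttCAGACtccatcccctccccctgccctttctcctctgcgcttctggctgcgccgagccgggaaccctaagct
The Runx core was found in 0 of the 6 genes, where 18.9% of all genes with windows held it. The Smad-binding element was found in 3 of the 6 genes, where 53.2% of all genes held it. It lay at 203 bases before the start in the other Tgfbr1 window, at 160 bases before the start of Tgfbr2 and at 21 bases before the printed start of Smad5. A match describes only these letters in these windows. Of the 3 genes that passed and were searched, Smad5 held the Smad-binding element in 1 of 3 windows, the one printed. Tgfbr1 held it in 1 of 2, and Smad1 did not hold it. Smad2, which also passed, was not searched. Tgfbr2, which did not pass, held it.

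The rest of the pathway was described with 108 further genes in 8 lists, of which 105 were measured. Of these 23 were higher in DKO, 7 were lower and 75 did not pass, or 28.6% called, beside 17.4% of all genes. Their median difference was 0.02, beside -0.04 over all genes. In the 7 lists with more than 2 genes, the share called ran from 0% of ligands and 13% of target genes to 40% of nuclear partners and 45% of Smad anchors and modifiers.

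Of 14 measured ligand genes, which included Tgfb2, Tgfb3, the activin chain Inhba and Bmp2, Bmp4, Bmp6 and Bmp7, 0 were called in either direction by limma, and the median difference was -0.14. At an unadjusted p below 0.05, 2 of them were lower, or 14.3%, where 16% of all genes were, and 0 were higher. The mean signals of the ligand genes lay between percentile 10.4 (Bmp2) and percentile 53.1 (Bmp6) of all genes. In each group 2 of the 14 stayed under every array's lower quartile. With signals this dim, a lack of calls does not show that ligand expression was unchanged. Of 11 genes that store or activate latent TGF-beta, 3 were higher and 0 lower. Thbs1, which encodes thrombospondin 1, a protein that can release active TGF-beta, rose 1.74-fold (6.83, 6.65 and 6.55 in DKO, 5.94, 5.78 and 5.92 in WT, limma adjusted p = 0.000929). Itgav, the alpha chain of integrins that activate latent TGF-beta, rose 1.34-fold (adjusted p = 0.00772) and stood at 0.27 on the log2 scale with the trend removed, without passing (0.0564). Nrros, which encodes an anchor of latent TGF-beta on myeloid cells, rose 1.39-fold (adjusted p = 0.0412). Its call was lost under 8 of 17 alternatives, among them those that left out DKO replicate 1 (0.109), 2 (0.119) or 3 (0.0939), WT replicate 2 (0.0848) or WT replicate 3 (0.108).

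Of 15 other receptors and co-receptors of the family 4 were higher, 1 was lower and 10 did not pass. Acvr1b, a type I receptor for activin that acts through Smad2 and Smad3, had signals of 7.37, 7.82 and 7.53 in DKO and 6.37, 6.69 and 6.54 in WT. It rose 2.05-fold (SE 0.130 on the log2 scale, limma adjusted p = 0.000869), the highest difference in the 8 lists. Bmpr2, the type II receptor for BMPs, rose 1.76-fold (8.30, 8.74 and 8.56 in DKO, 7.77, 7.81 and 7.57 in WT, adjusted p = 0.0023). Both passed under all 17 alternatives tried, Bmpr2 at 0.59 on the log2 scale with the trend removed.

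The other calls among receptors were lost when single samples were left out. Eng, or endoglin, a co-receptor for TGF-beta and BMPs, rose 1.34-fold (limma adjusted p = 0.0258), and did not pass with DKO replicate 1 (0.0609), 2 (0.0888) or 3 (0.0767) or WT replicate 1 (0.0538) left out, nor with the trend removed (0.0531). Acvr1, a type I receptor for BMPs and activins, rose 1.27-fold (adjusted p = 0.0489), and the call was lost without DKO replicate 1 (0.0824), 2 (0.134) or 3 (0.15), without WT replicate 2 (0.0702) or 3 (0.137) and under 2 other alternatives. Rgmb, a BMP co-receptor, fell by 0.31 on the log2 scale (adjusted p = 0.0486), a call lost without any 1 of the 6 samples (0.0624 to 0.163).

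Of the 2 Smads outside the 10 genes, Smad6, an inhibitory Smad that acts mainly on the BMP branch, fell by 0.42 on the log2 scale (limma adjusted p = 0.0116). Its signals were 5.69, 5.59 and 5.61 in DKO and 6.17, 6.01 and 5.98 in WT, with no overlap. Smad6 passed under all 16 alternatives that retained it (adjusted p of 0.00879 to 0.0486). Smad9, a receptor-regulated Smad of the BMP branch, had a difference of 0.02 (adjusted p = 0.905).

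Of 20 genes that anchor, move, modify or degrade Smads, 8 were higher, 1 was lower and 11 did not pass. Usp9x, a deubiquitinase that acts on Smad4, rose 1.68-fold (limma adjusted p = 0.00114), and Rnf111, a ubiquitin ligase that promotes Smad signalling, rose 1.46-fold (adjusted p = 0.00593). Sptbn1, a spectrin known as a Smad adaptor, rose 1.56-fold (adjusted p = 0.00219), and Trim33, which binds Smad2, Smad3 and Smad4, rose 1.46-fold (adjusted p = 0.00508). With the trend removed Usp9x was at 0.49 and Rnf111 at 0.36 and both passed, while Sptbn1 at 0.31 (0.0589) and Trim33 at 0.30 (0.0756) did not. The gene that fell was Dab2, an endocytic adaptor that binds the receptors, by 0.41 (adjusted p = 0.025). It did not pass with DKO replicate 1 (0.066), 2 (0.0609) or 3 (0.0957) or WT replicate 1 (0.0573) left out.

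Of 15 nuclear partners of Smads, 5 were higher, 1 was lower and 9 did not pass, and the median difference was 0.29. Zeb2, a repressor that binds activated Smads, rose 1.88-fold (8.59, 8.67 and 8.53 in DKO, 7.64, 7.65 and 7.77 in WT, limma adjusted p = 0.000227). Ep300, an acetyltransferase used as a coactivator, rose 1.65-fold (adjusted p = 0.000522) and Foxo1, a forkhead factor, rose 1.64-fold (adjusted p = 0.00172). E2f4, known to work with Smad3 in repressing Myc, fell by 0.81 on the log2 scale (7.32, 7.25 and 7.37 in DKO, 8.03, 8.26 and 8.09 in WT, adjusted p = 0.000573). All 4 passed under all 17 alternatives tried.

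Of 8 genes of the branch that runs through the kinase Map3k7 in place of Smads, 2 were higher and 1 was lower. The adaptor gene Tab2 rose 1.62-fold (limma adjusted p = 0.000604) and the ubiquitin ligase gene Traf6 1.34-fold (adjusted p = 0.0095). Tab1, an activator of Map3k7, fell by 0.32 (adjusted p = 0.0463), a call lost under 9 of 17 alternatives, among them those that left out DKO replicate 1 (0.148), DKO replicate 3 (0.158), WT replicate 1 (0.0977) or WT replicate 3 (0.117).

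Of 23 measured target genes of the pathway, 1 was higher, 2 were lower and 20 did not pass, or 13% called, beside 17.4% of all genes. Skil, Pmepa1 and Tgif1 stood in this list and in another one and were counted once in the total. Cdkn1b, the cyclin-dependent kinase inhibitor p27, rose 1.54-fold (8.96, 9.11 and 8.75 in DKO, 8.34, 8.23 and 8.39 in WT, limma adjusted p = 0.00435). Its difference was 0.62 on the log2 scale, and 0.376 with the mean of its probe sets (adjusted p = 0.0177). Id2, an inhibitor of helix-loop-helix factors, fell by 0.53 (4.83, 4.44 and 4.77 in DKO, 5.19, 5.20 and 5.24 in WT, adjusted p = 0.0113). Its DKO signals lay on both sides of the arrays' lower quartiles (4.63 to 4.66), so the size of the fall is uncertain. Id2 passed under all 16 alternatives that retained it, and the filter of the dimmest 50% of genes removes it. Ccn2, which encodes connective tissue growth factor, fell by 0.40 (adjusted p = 0.0113, and 0.0501 without DKO replicate 2). Junb, Klf10 and Tgfbi, early or well-known targets, had differences of -0.27, 0.23 and 0.11 that stayed short of the threshold (adjusted p = 0.201, 0.226 and 0.664).

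**Figure D4:**
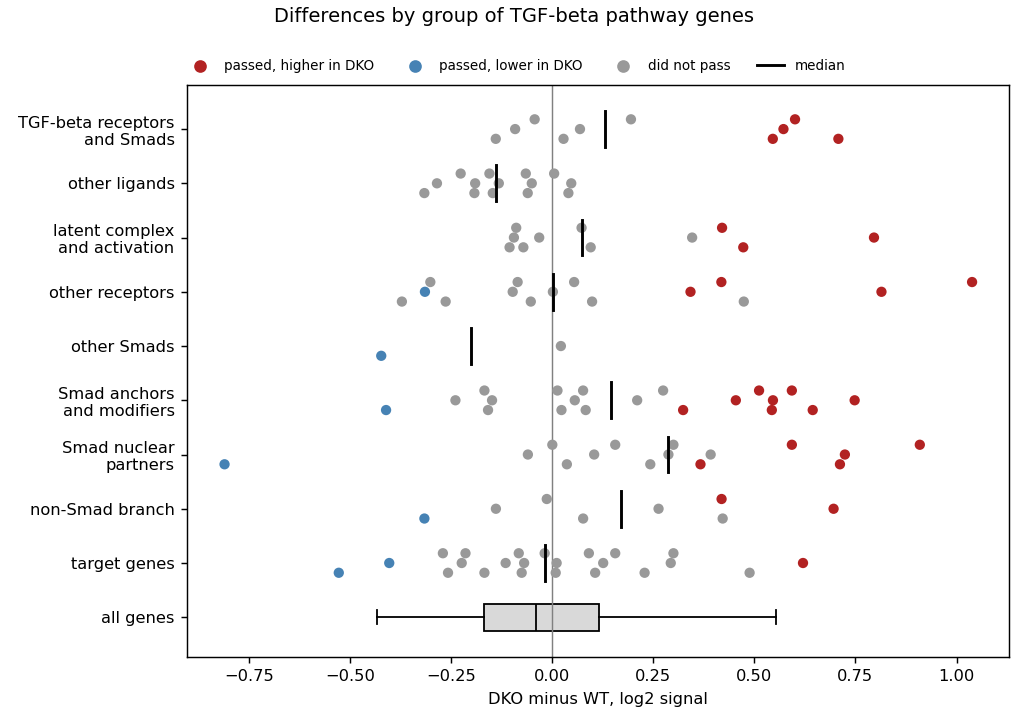
DKO minus WT difference in log2 signal of each gene, by group, with the median as a bar, and for all 19938 genes a box of the quartiles with whiskers at the 5th and 95th percentiles. Differences of the ligands lie near or below 0 with no call, while calls to the right of 0 lie in every other group except the other Smads.

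Smad5 had the smallest p of the 10 genes. The 3 genes whose log2 signals followed its own most closely over the 6 arrays were Rnpc3, Nufip2 and Ncapd3, with Pearson correlations of 0.999, 0.998 and 0.997. Their differences were 0.59, 0.68 and 0.43. The 6 arrays fall into 2 groups that differ in all 4 genes, and the correlations are given as a description.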

How the data were processed

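RNA of KSL cells was amplified and hybridised to Affymetrix Mouse Gene 1.0 ST arrays, 1 per sample, per the labels' protocols. The deposited values are log2 signals per probe set. The titles name RMA at gene level and the design text MAS 5.0, and the values (1.25 to 13.7, near-equal quartiles) look like log2 RMA output. The authors' software was Affymetrix Expression Console 1.0, per the submitters' processing notes. The genome build and background settings are not stated.

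Of 35556 probe sets, 21789 had 1 gene symbol, 1621 several and 12146 none. Per gene the probe set with the highest mean over 6 arrays was kept, and no dim gene was removed. DKO was compared with WT by limma 3.58.1 (R 4.3.3, lmFit and eBayes, two-sided, threshold 0.05). An exact permutation test of 3 against 3 samples cannot go below p = 0.1. Whether replicates are single mice or pools is not settled, since the design text counts 6 mice yet names pools of 3 for WT. The number of arrays limits the precision. Tested on data simulated for DKO against WT over 19938 genes, of which 200 were changed, the fit recovered 87% of log2 changes of 1 and 32% of log2 changes of 0.5. In the deposited values 3469 genes passed, so recovery there may differ from these shares.

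The members, lists, named genes, tests and alternatives were chosen with earlier results of these data known. Named genes are the 10 members, up to 4 called genes with the smallest p per pathway list, any called at 1 or more, Runx1, Runx3 and Cbfb, and 3 neighbours of the member with the smallest p. Kit, Cd34 and other cell type markers, marker sums without their leading gene, Acvr1, Dab2, Smad9 and the genes named without a call were added after their values were seen. Of the 108 listed pathway genes, 3 are not analysed here.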

Additional observations from a re-analysis of the deposited data

How the results depend on the processing

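Among the 10 genes, 153 of 169 recomputed differences kept their direction and their side of the threshold, 8 lost a call that the values as deposited gave (5 for Smad1 and 3 for Smad2), and 8 changed sign, none of them called. Tgfb1 was at -0.0714 under quantile normalisation, -0.0711 under cyclic loess, -0.046 with the trend over signal and gene length removed and -0.0122 without WT replicate 3, with 0.0627 without WT replicate 2 as the other end of its range with 1 sample left out. Tgfbr2 was at -0.0433 with the trend removed and, with 1 sample left out, ran from -0.053 without DKO replicate 2 to 0.202 without DKO replicate 1. Smad3 was at 0.00187 with median centring, and Smad4 at -0.00266 with the trend removed. The cause of these changes was not tested. The number of the 10 genes called higher was 2 with the trend removed and 2 to 4 with 1 sample left out, with 2 both without DKO replicate 2 and without DKO replicate 3, and 0 were called lower under every alternative tried. Smad7 was not tested without the dimmest 50% of genes, since that filter removes it.

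Of the other pathway genes, 15 to 21 were called higher and 4 to 7 lower with 1 sample left out, where the lowest 15 was without DKO replicate 3 and 4 were lower without DKO replicate 1, DKO replicate 3 or WT replicate 1. Without the dimmest 50% of genes 4 were lower, with fewer genes tested. Over all genes 1936 were higher and 1533 lower, against 1250 to 1868 and 843 to 1388 with 1 sample left out, where the counts lower were 843, 876 and 854 without DKO replicates 1, 2 and 3 and the 1250 higher was without DKO replicate 3. Median centring gave 2254 higher and 1121 lower, so that 66.8% of calls were higher, in place of 55.8%.

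The groups share replicate numbers in the labels, but same-numbered samples did not deviate together (correlations over genes of -0.00874, -0.0954 and -0.0419). These are deviations from means of 3 samples, so whether the numbers pair the samples is not settled. With the replicate block, 4 of the 10 genes, 21 other pathway genes and 1772 genes in all were called higher, and 0, 5 and 1272 lower. A comparison of 3 DKO with 3 WT samples leaves few degrees of freedom, and genes with dim signal have differences that are uncertain in size.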
